A study of Rattus norvegicus with 12 samples.

Results

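The proteasome subunit genes are the 47 of 18800 gene symbols in a rat brain RNA-seq count table whose names begin with Psma, Psmb, Psmc, Psmd, Psme, Psmf or Psmg and a digit, with at least 1 count in some column and with the immunoproteasome genes Psmb8 and Psmb9 set aside. By textbook role they comprise 8 genes of the 20S alpha ring, 9 of the 20S beta ring, 6 ATPases and 3 other subunits of the base of the 19S cap, 8 subunits of its lid, 7 assembly factors, 4 activators and 1 inhibitor. Psmc3ip, the remaining member, matches by name only: it encodes a meiotic recombination partner and is no subunit.

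The proteasome degrades proteins that carry chains of ubiquitin. Its barrel, the 20S core, holds the cutting sites of Psmb5, Psmb6 and Psmb7 inside the beta rings, closed at each end by an alpha ring; the 19S cap binds ubiquitin chains, removes them and threads the substrate in with its ATPases. Under interferon the cutting subunits are replaced by Psmb8, Psmb9 and Psmb10, and the alternative cap PA28 is built from Psme1 and Psme2. In brain, ubiquitinated proteins are known to build up in neurons after ischemia, and the transcription factor NRF1 (gene Nfe2l1) raises subunit genes when proteasome activity falls short.

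All rats were of the Sprague-Dawley strain, all were restrained by bundling, and RNA came from brain tissue of unstated region and side; the labels used here state no age, sex or time after the operation. The electroacupuncture group had middle cerebral artery occlusion with reperfusion (MCAO/R) with current passed through needles at the points Tianfu, Chize, Kongzui and Taiyuan, the model group had MCAO/R without needling, and the control group had no needling and, per the labels, no named operation, although its columns are called sham. The labels list 4 samples a group and the table has 11 columns, 3 of them for controls. Since 3 pairs of columns of 1 group differed by only 1.34 to 1.40 times the sampling variance, against at least 4.75 for the other 12 pairs within a group, each pair was summed, which left 3 electroacupuncture samples (A to C), 2 model samples (A and B) and 3 controls (A to C) with 9335913 to 23835724 counts each. No source says which samples are different animals, and the p-values then cover the spread among these 8 samples, which may be technical.

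Samples differed in markers of brain cell types and regions. Summed over 8 markers of striatal medium spiny neurons, electroacupuncture A had 4664 CPM (counts scaled to library size by the TMM method and a common total), and the other 7 samples had 149 to 691 CPM. Its 8 pan-neuronal markers summed to 3822 CPM, with 5876 to 10123 CPM elsewhere. The 8 hippocampal markers, of which Spink8 was at 0 in control B, summed to 181 CPM in electroacupuncture A and to 116 and 150 CPM in model samples A and B, while the other 5 had 335 to 425 CPM. Neocortical markers summed to 489 and 1400 CPM in the model samples and to at most 318 CPM elsewhere. The 10 microglial markers were all detected in every sample and summed to 833 CPM in electroacupuncture A and 630 CPM in model A, while the other 6 had 204 to 331 CPM. Red cell markers summed to 156 CPM in electroacupuncture C and to 1705 to 8261 CPM elsewhere, choroid plexus markers to 1354 CPM in control C and to at most 89.6 CPM elsewhere, and myelin markers to 24497 CPM in model B and 31818 to 74253 CPM elsewhere. Ttr made up 1344 CPM of the choroid plexus sum in control C. Kl was also highest there (1.28 CPM), but Folr1 and Clic6 were highest in electroacupuncture A (9.02 and 2.78 CPM). Astrocyte markers ranged from 1417 CPM in model B to 3679 CPM in model A, and endothelial markers from 91.1 CPM in model A to 267 CPM in electroacupuncture A. The part of any of these in the results was not tested, and in bulk tissue fewer cells of a type cannot be told apart from less RNA per cell.

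The proteasome genes varied little between samples. All 47 passed the expression filter. Over the 8 samples, the standard deviation (SD) of log2 CPM had a median of 0.19 among them and 0.35 among all 15487 genes tested, and it was under 0.25 for 36 members, or 76.6%, and for 32.3% of all genes. Members had the higher median level, 6.59 against 4.40 log2 CPM, and counting error is smaller at higher counts. Psmb6, the subunit with the caspase-like cutting site, had the smallest spread of the members: 83.5, 95.0 and 95.4 CPM in electroacupuncture A to C, 85.4 and 88.7 CPM in model samples A and B, and 89.5, 93.0 and 98.9 CPM in controls A to C (SD 0.08 on the log2 scale). Its groups overlapped except that both model samples lay below the controls. The members with a spread above 0.5 were Psme1, Psmd9, Psmb11, Psma8 and Psmg4.

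**Figure D1:**
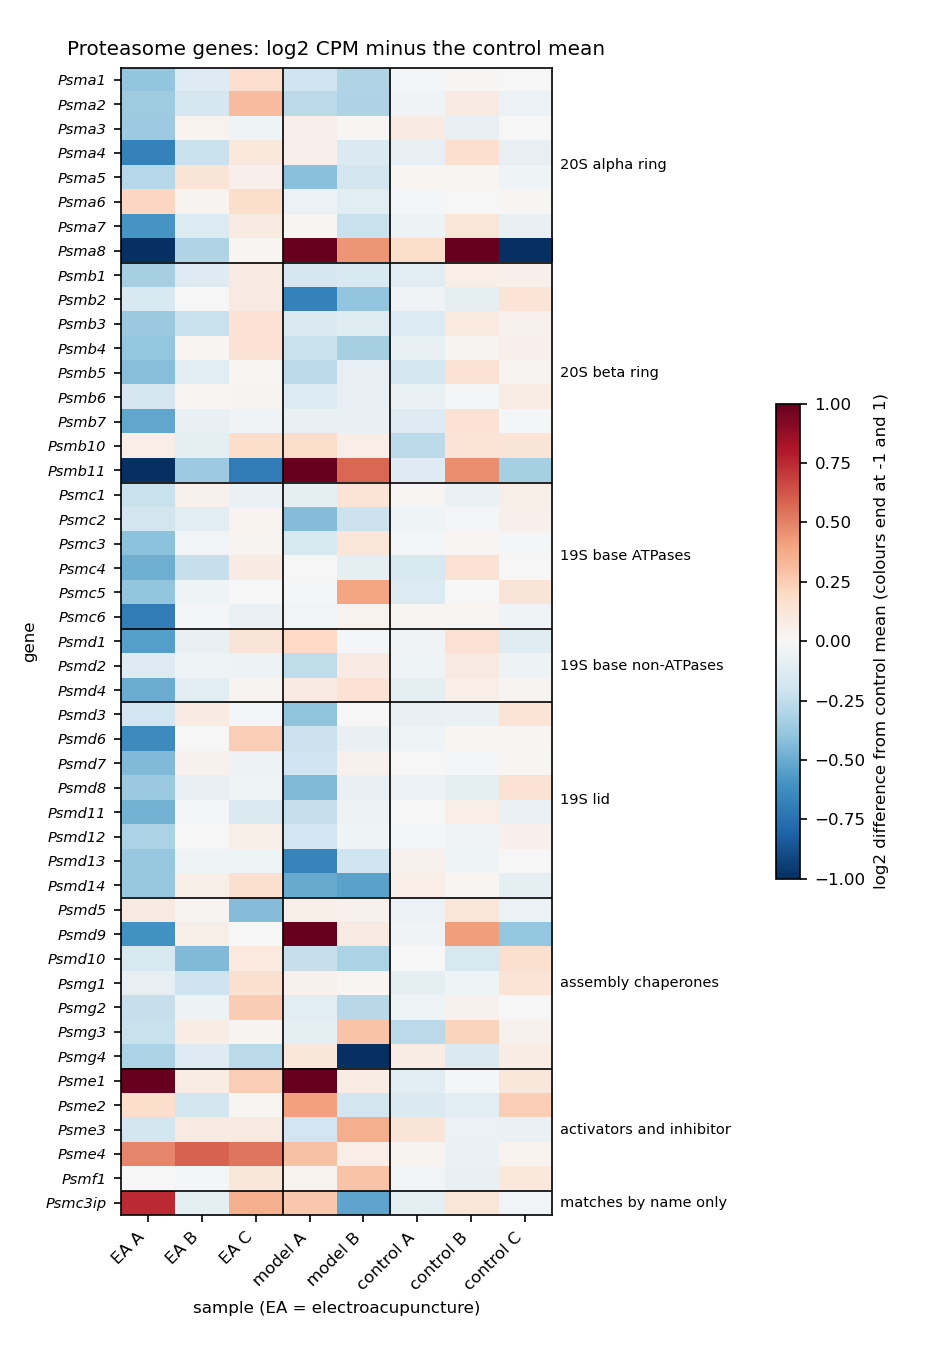
Log2 CPM of each of the 47 genes (rows, by role) in each of the 8 samples (columns), as the difference from the mean of the 3 control samples. Most cells are pale; electroacupuncture A is blue through most of the core and cap, and Psma8, Psmb11, Psmd9, Psmg4 and Psme1 stand out in single samples.

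The model was set against the control to see the effect of the operation. No proteasome gene passed the test (edgeR quasi-likelihood, adjusted p under 0.05 over all genes; 0.00646% of genes passed; DESeq2 on the same samples called 0 of the 47 and 4.91% of all genes). Unadjusted p was under 0.05 for Psmb11 among those higher in estimate and for Psmb2 and Psmd14 among those lower, against 7.61% and 6.2% of all genes. The median log2 fold change was -0.08 over the members and 0.02 over all genes, with 29 members lower in estimate (48.5% of all genes were) and 18 higher (51.5%). With total counts in place of TMM the split turned, to 19 lower and 28 higher, while the median of all genes moved to 0.13. Both model samples lay below every control for 15 members (31.9%, against 19.6% of all genes) and above every control for 3 (6.38%, against 18.2%).

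Electroacupuncture against model asks what the needling changed, and shares its model samples with the comparison above. Again 0 of 47 members and 0% of all genes passed in edgeR; DESeq2 called 1 member, Psmb11, as lower (log2 fold change -1.91, SE 0.45, adjusted p = 0.00174), among 4.37% of all genes. In edgeR 3 members were higher (Psmb2, Psmd14 and Psme4) and 3 lower (Psma8, Psmb11 and Psmd9) at an unadjusted p under 0.05, where 6.3% and 7.18% of all genes were. The median over the members was -0.06, against 0.03 over all genes, with 22 higher in estimate (53.4% of all genes were) and 25 lower (46.6%). The median was 0.08 without electroacupuncture A and 0.06 without model B. Members without overlap between the groups numbered 5 higher, against 12.9% of all genes, and 4 lower, against 11.7%.

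Electroacupuncture against control showed 38 of 47 members lower in estimate, where 49.2% of all genes were, and 9 higher, where 50.8% were, with a median of -0.09 against 0.01 over all genes, and no member passed (0% of all genes; DESeq2 called 0 members and 0.0054% of all genes). Psme4, which was higher, was the only member with an unadjusted p under 0.05 (2.71% of all genes were higher and 0.956% lower at this p). Groups did not overlap for 2 members that were higher, Psma6 and Psme4 (5.98% of all genes), and 2 that were lower, Psmb11 and Psmd13 (4.88%). The count rested on electroacupuncture A. Without it 26 members were lower and the median was -0.0061, against -0.0016 over all genes. Total counts also gave 26 lower, but there all genes moved as well. The median was then -0.025 over the members and 0.092 over all genes, of which 5843 of 15487 were lower. Electroacupuncture A was the lowest of the 8 samples for 25 members (53.2%, against 24.0% of all genes) and the highest for 2 (4.26%, against 25% of all genes).

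**Figure D2:**
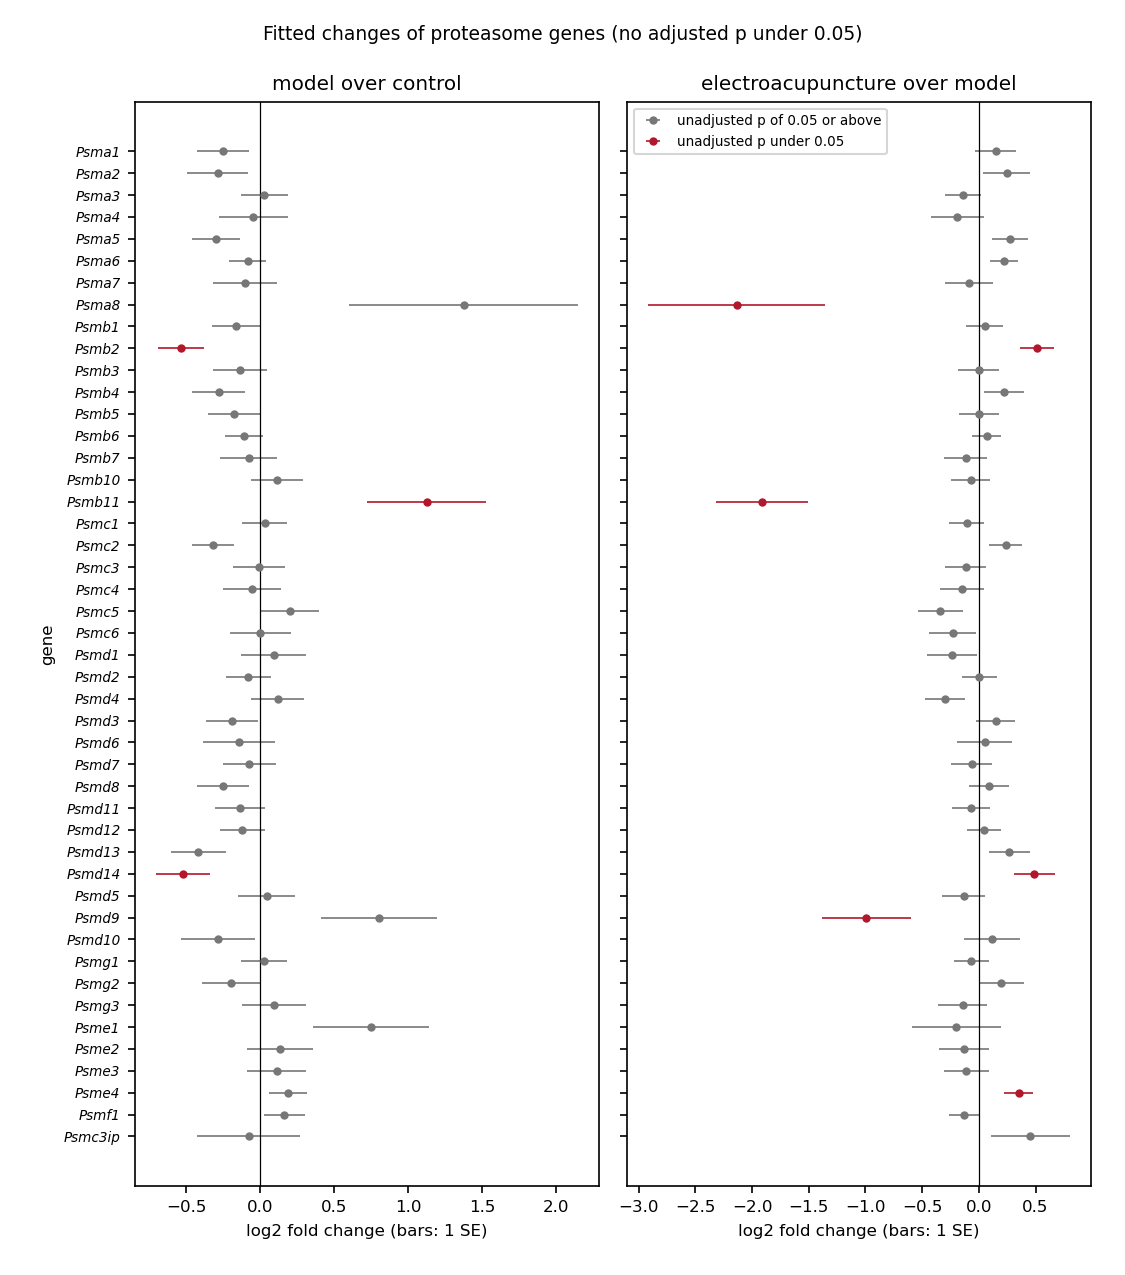
Fitted log2 fold change (horizontal axis; bars are 1 SE) of 46 proteasome genes, model over control at left and electroacupuncture over model at right; both panels use the same model samples. Psmg4 is left out because its fitted fold rests on a sample with 2 counts. Red points, with an unadjusted p under 0.05, include Psmb2 and Psmd14 on opposite sides in the panels.

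In the 20S alpha ring, whose subunits form the gate of the barrel, 6 of 8 genes were lower in estimate in the model (median log2 fold change -0.09; with total counts 5 of 8 were higher, with a median of 0.0195) and 4 of 8 higher with electroacupuncture than in the model (median 0.03; -0.012 with total counts). Psma5, a gate subunit, measured 43.1, 57.4 and 54.4 CPM in electroacupuncture A to C, 39.3 and 46.2 CPM in model samples A and B, and 53.2, 53.2 and 51.0 CPM in the controls (log2 fold change of model over control -0.30, SE 0.16, edgeR adjusted p = 0.45). Both model samples lay below the controls, and electroacupuncture A lay between them. Psma1, Psma2 and Psma6 were the other alpha genes with both model samples below the controls. Psma6 was also the alpha gene with all electroacupuncture samples above both other groups, at 99.6, 87.4 and 96.9 CPM, against 82.5 and 79.5 CPM in the model and 85.0 to 86.8 CPM in controls. The fitted changes of model over control ran from -0.29 (Psma2) to 0.03 (Psma3) over the alpha genes other than Psma5 and Psma8, with no edgeR adjusted p under 0.555.

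In the 20S beta ring, the model was lower in estimate for 7 of 9 genes (median -0.14; 4 of 9 higher and a median of -0.027 with total counts). Psmb2, a subunit without a cutting site, gave the smallest p of the model comparison among members. It measured 71.5, 79.3 and 84.3 CPM in electroacupuncture A to C, 49.5 and 60.3 CPM in model samples A and B, and 77.4, 74.1 and 87.0 CPM in controls A to C. The model samples lay below both other groups, which overlapped each other. The log2 fold change was -0.53 for model over control (SE 0.15, edgeR adjusted p = 0.207) and 0.51 for electroacupuncture over model (SE 0.15, adjusted p = 0.227), and -0.021 for electroacupuncture over control (SE 0.14, adjusted p = 0.976). The first estimate was -0.40 without model A and -0.69 without model B, and with all 11 columns as separate libraries it was called (adjusted p = 0.0274), which counts the near-identical columns as replicates.

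Of the cutting subunits, Psmb5 (chymotrypsin-like) measured 90.9, 113 and 123 CPM in electroacupuncture A to C, 102 and 115 CPM in model samples A and B, and 108, 135 and 124 CPM in the controls. Psmb7 (trypsin-like) measured 162, 220 and 226 CPM with electroacupuncture, 220 and 219 CPM in the model, and 212, 255 and 229 CPM in controls. The groups overlapped for both genes, and electroacupuncture A was the lowest sample for each. Their log2 fold changes of electroacupuncture over control were -0.17 (SE 0.16) and -0.19 (SE 0.17), with an edgeR adjusted p of 0.843 each, and -0.059 and -0.055 without electroacupuncture A. Psmb1, Psmb3, Psmb4 and Psmb6 were all lower in the model in estimate by TMM, between -0.28 (Psmb4) and -0.11 (Psmb6), and none passed.

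Among the 6 ATPases of the 19S base, which unfold the substrate, 3 were higher and 3 lower in the model in estimate (median -0.0026 by TMM and 0.11 with total counts, where 5 were higher). Psmc2 measured 120, 127 and 140 CPM in electroacupuncture A to C, 101 and 118 CPM in model samples A and B, and 133, 136 and 142 CPM in the controls, with both model samples below the other groups (log2 fold change of model over control -0.32, SE 0.14, edgeR adjusted p = 0.379). Psmc5 went the other way in model B: it measured 172, 220 and 227 CPM with electroacupuncture, 225 and 297 CPM in model samples A and B, and 206, 228 and 248 CPM in controls (electroacupuncture over model -0.34, SE 0.20, adjusted p = 0.523). Its groups overlapped through model A. The other 4, Psmc1, Psmc3, Psmc4 and Psmc6, had fitted changes of model over control between -0.05 (Psmc4) and 0.03 (Psmc1), and of electroacupuncture over model between -0.23 (Psmc6) and -0.11 (Psmc1).

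Of the other base subunits, Psmd4, a receptor for ubiquitin chains, measured 93.3, 123 and 134 CPM in electroacupuncture A to C, 140 and 146 CPM in model samples A and B, and 123, 138 and 134 CPM in the controls. The model samples were the highest, and the log2 fold change of electroacupuncture over model was -0.30 (SE 0.18, edgeR adjusted p = 0.536). Psmd1, a large scaffold of the base, measured 141, 196 and 226 CPM with electroacupuncture, 237 and 205 CPM in the model, and 202, 230 and 190 CPM in controls, with all groups overlapping. Psmd2, its partner scaffold, ranged from 129 to 164 CPM over the samples.

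The 19S lid, which holds the enzyme that removes ubiquitin chains, was lower in estimate in the model for all 8 genes by TMM and for 7 of 8 with total counts (median -0.17 and -0.06). None passed, and 4 of the 8 (50%, against 19.6% of all genes) had both model samples below every control. The same held for 4 of 8 genes of the 20S alpha ring (50%) and 4 of 9 of the beta ring (44.4%). The mean log2 difference of the lid genes from the controls was -0.40 in electroacupuncture A, 0.0051 and 0.021 in the other electroacupuncture samples, -0.36 in model A and -0.12 in model B. Electroacupuncture A and model A are also the samples with the lowest neuronal marker sums, whose part in this was not tested.

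Psmd14 encodes that enzyme, a zinc-dependent deubiquitinase. It measured 35.8, 48.6 and 52.1 CPM in electroacupuncture A to C, 32.8 and 32.1 CPM in model samples A and B, and 48.8, 47.3 and 43.8 CPM in controls A to C. Both model samples lay below all others, with electroacupuncture A next. The log2 fold change was -0.52 for model over control (SE 0.18, edgeR adjusted p = 0.274) and 0.49 for electroacupuncture over model (SE 0.18, adjusted p = 0.305); over the fits that left out 1 sample these ran from -0.56 to -0.49 and from 0.38 to 0.64. Both were called with all 11 columns as separate libraries (adjusted p = 0.0347 and 0.0227), and neither was when the column number was added as a block (adjusted p = 0.0858 and 0.0726).

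Psmd13, another lid subunit, measured 68.6, 86.5 and 86.8 CPM in electroacupuncture A to C, 56.2 and 77.7 CPM in model samples A and B, and 92, 86.9 and 89.1 CPM in controls (model over control -0.42, SE 0.18, edgeR adjusted p = 0.37; -0.20 without model A). Every electroacupuncture and model sample lay below every control, though electroacupuncture B and C lay just under the lowest control. The other 6 lid genes (Psmd3, Psmd6, Psmd7, Psmd8, Psmd11 and Psmd12) had fitted changes of model over control between -0.25 (Psmd8) and -0.07 (Psmd7).

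**Figure D3:**
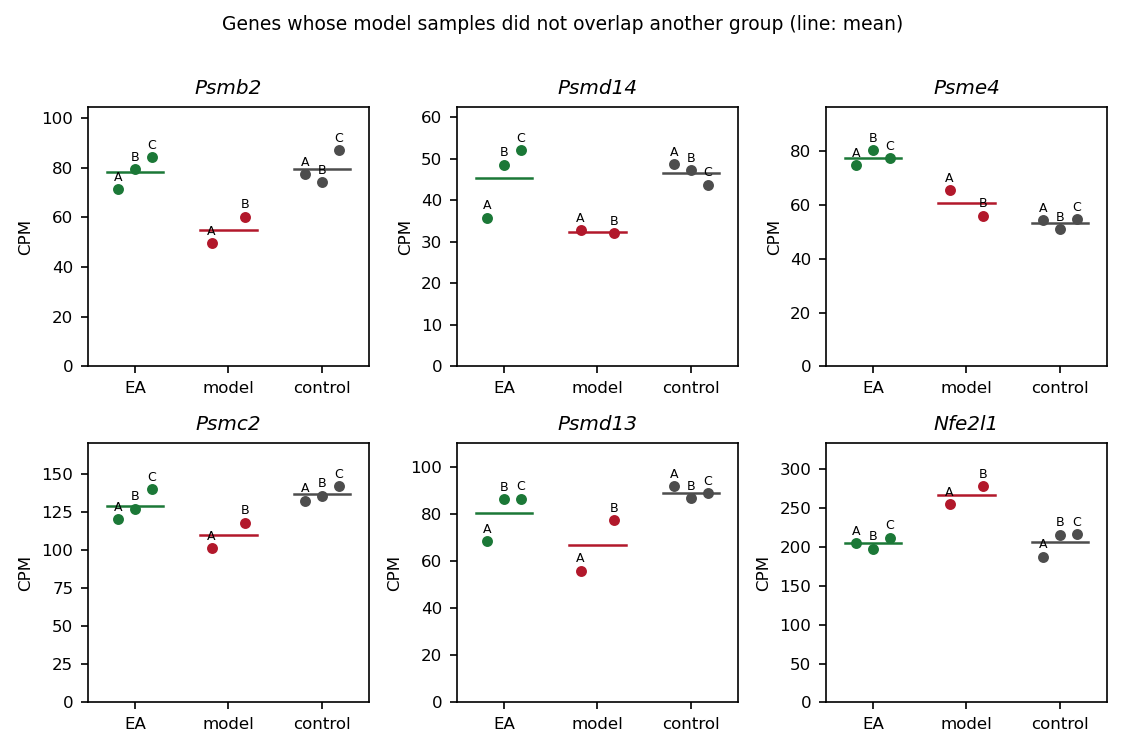
CPM (vertical axis, from 0) in each sample, lettered, of 5 proteasome genes and of Nfe2l1 with electroacupuncture (EA), in the model and in controls; lines are group means. Psmb2, Psmd14 and Psmc2 are lowest in both model samples, Nfe2l1 is highest there, and Psme4 is highest with electroacupuncture.

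Psme4 encodes PA200, a single-chain cap known for a role in spermatogenesis and the breakdown of acetylated histones. It measured 75.0, 80.5 and 77.5 CPM in electroacupuncture A to C, 65.6 and 56.1 CPM in model samples A and B, and 54.5, 51.0 and 54.8 CPM in controls A to C. The groups did not overlap, and the order was electroacupuncture, model, control. The log2 fold change was 0.54 for electroacupuncture over control (SE 0.11, unadjusted p = 0.0018, adjusted p = 0.843 by edgeR) and 0.35 for electroacupuncture over model (SE 0.13, adjusted p = 0.302). The first ran from 0.50 to 0.56 over the fits that left out 1 sample, and electroacupuncture A, which stood apart in its markers and in most members, did not stand apart here.

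The promoters of Psmb2 and Psme4 were picked partly by the values of these genes. For Psmb2 the model samples lay below both other groups, which overlapped, and for Psme4 no groups overlapped. Both promoters hold a match to TGACNNNGC, the core of the antioxidant response element that NRF1 and NRF2 bind. The 300 bases run from 250 before to 50 after the RefSeq start site of assembly GRCr8, 5′ to 3′ on the gene's strand, with the match in capitals: Psmb2 lies at chr5:144254808-144255107 on the plus strand and Psme4 at chr14:108706393-108706692 on the plus strand.
Psmb2: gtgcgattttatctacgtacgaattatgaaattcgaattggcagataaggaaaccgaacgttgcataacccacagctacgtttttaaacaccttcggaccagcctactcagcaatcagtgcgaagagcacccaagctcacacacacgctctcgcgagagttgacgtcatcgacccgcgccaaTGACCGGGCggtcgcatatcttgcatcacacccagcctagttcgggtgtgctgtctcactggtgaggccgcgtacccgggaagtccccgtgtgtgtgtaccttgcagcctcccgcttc
Psme4: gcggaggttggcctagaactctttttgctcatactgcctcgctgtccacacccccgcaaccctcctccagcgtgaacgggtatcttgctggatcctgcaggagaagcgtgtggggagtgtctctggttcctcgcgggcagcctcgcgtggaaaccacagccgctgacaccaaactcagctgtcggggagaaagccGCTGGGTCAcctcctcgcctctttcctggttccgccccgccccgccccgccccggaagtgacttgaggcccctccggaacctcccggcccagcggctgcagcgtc
The match begins 68 bases before the start in Psmb2 and 55 before it, on the opposite strand, in Psme4.

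RefSeq promoters were at hand for 42 of the 47 members. On either strand TGACNNNGC occurred in 8 of the 42 (19%, against 12.1% of all 33469 promoters of this length): Psma3, Psmb2, Psmb5, Psmb6, Psmd1, Psmd3, Psmd9 and Psme4. For Psma3, Psmb5, Psmd1 and Psmd3 the groups overlapped in every comparison. CCGGAA, a core that ETS factors bind, occurred in 22 (52.4%, against 15.0%), and GGGCGG, the GC box of Sp1 and its relatives, in 31 (73.8%, against 33.1%). CCAAT, bound by NF-Y, occurred in 20 (47.6%, against 37.5%), the cyclic AMP response element TGACGTCA in 1 (2.38%, against 1.83%), and the heat shock element (GAA, TTC and GAA, each 2 bases apart) in 0 (0.798% of all promoters). Of the 10 matches to TGACNNNGC, 1 shared bases with other motifs, that of Psmb2, which overlaps a CCAAT on one side and a GGGCGG on the other. These shares describe letters in a window and are no evidence of binding.

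**Figure D4:**
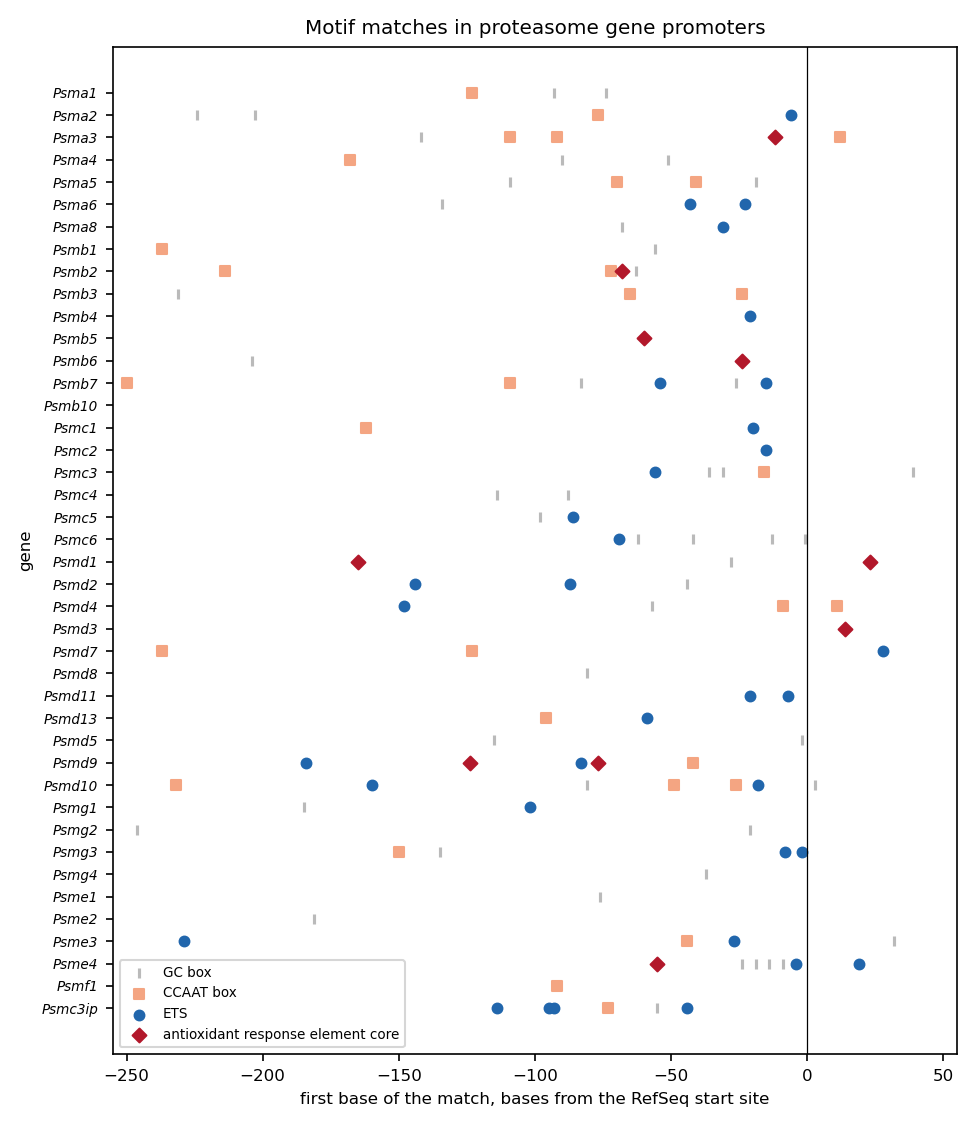
Position of each match to 4 motifs (first base, in bases from the RefSeq start site, horizontal axis) in the promoters of 42 proteasome genes (rows, by role). Matches to the antioxidant response element core (red diamonds) are in 8 promoters, and ETS matches (blue) in 22.

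Nfe2l1 itself, the gene for NRF1, measured 205, 198 and 212 CPM in electroacupuncture A to C, 255 and 278 CPM in model samples A and B, and 188, 216 and 216 CPM in controls A to C. Both model samples lay above all others. The log2 fold change was 0.37 for model over control (SE 0.15, edgeR adjusted p = 0.324) and -0.38 for electroacupuncture over model (SE 0.15, adjusted p = 0.319).

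Among the interferon-inducible members, Psme1 was high in single samples of 2 groups. Psme1, the alpha chain of PA28, measured 90.1, 43.8 and 49.5 CPM in electroacupuncture A to C, 96.4 and 43.8 CPM in model samples A and B, and 38.8, 41.4 and 45 CPM in the controls. Electroacupuncture A and model A stood at about the same high level and the other 6 samples together below. The model over control estimate of 0.75 (SE 0.39, edgeR adjusted p = 0.429) was 0.067 without model A. Psme2, the beta chain, whose counts are partly fractional, measured 51.5, 40.2 and 46.3 CPM with electroacupuncture, 60.6 and 40.1 CPM in the model, and 41.3, 42.4 and 54.1 CPM in controls, and all groups overlapped.

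Psmb8 and Psmb9, the cutting subunits that interferon brings in, showed the same samples high. Psmb8 measured 16.6, 6.08 and 6.22 CPM in electroacupuncture A to C, 15.7 and 6.35 CPM in model samples A and B, and 4.49, 6.71 and 8.06 CPM in controls. Psmb9 measured 11.5, 4.12 and 6.75 CPM with electroacupuncture, 11.7 and 5.58 CPM in the model, and 3.39, 3.64 and 7.15 CPM in controls. Neither passed in the model (log2 fold change 0.78 and 0.87, edgeR adjusted p = 0.564 and 0.505). Without model A the estimates were -0.019 for Psmb8 and 0.23 for Psmb9. The microglial marker sum was high in the same samples, 833 CPM in electroacupuncture A and 630 CPM in model A, and its part was not tested.

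Psmb10, the third inducible cutting subunit and the counterpart of Psmb7, did not share this pattern. It measured 31.9, 28.7 and 34.6 CPM in electroacupuncture A to C, 34.7 and 32.0 CPM in model samples A and B, and 25.4, 33.7 and 33.4 CPM in controls, with all groups overlapping (model over control 0.11, SE 0.17, edgeR adjusted p = 0.793). Its promoter and that of Psme2 are shown because both genes are textbook interferon targets and both hold the interferon-stimulated response element (GAAA, any 2 bases, GAAA), in capitals. Psmb10 lies at chr19:50743243-50743542 on the minus strand and Psme2 at chr15:33052702-33053001 on the minus strand, read as above.
Psmb10: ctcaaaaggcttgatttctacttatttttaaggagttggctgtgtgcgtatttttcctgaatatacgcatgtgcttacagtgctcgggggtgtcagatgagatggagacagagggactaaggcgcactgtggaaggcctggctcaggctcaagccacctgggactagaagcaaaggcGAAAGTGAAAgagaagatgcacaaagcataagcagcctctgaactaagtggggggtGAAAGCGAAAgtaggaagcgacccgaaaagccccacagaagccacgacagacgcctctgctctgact
Psme2: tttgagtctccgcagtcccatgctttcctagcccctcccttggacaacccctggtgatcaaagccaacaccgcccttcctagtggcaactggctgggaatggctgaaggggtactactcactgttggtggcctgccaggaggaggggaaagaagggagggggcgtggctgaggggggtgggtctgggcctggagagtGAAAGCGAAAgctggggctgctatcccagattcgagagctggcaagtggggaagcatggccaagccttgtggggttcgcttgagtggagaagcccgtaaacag
The element was chosen after the values were seen. It occurred in 6 of 42 member promoters (14.3%, against 3.92% of all): Psma4, Psmb3, Psmb10, Psmd7, Psme2 and Psmg4. The promoter of Psme1 held no match. TTCNNNGAA, the site of STAT factors, occurred in 3 (7.14%, against 8.87%).

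The inhibitor Psmf1 (PI31) ranged from 45.6 to 58.6 CPM over the 8 samples, and Psme3, which forms a nuclear cap, from 107 to 158 CPM with its highest value in model B. All 5 genes of this role were higher in the model in estimate by TMM, DESeq2 size factors and total counts, and none passed. By TMM the median log2 fold change was 0.16, and 51.5% of all genes were higher. Both model samples lay above every control for 1 of the 5, Psme4 (20%, against 18.2% of all genes). Psme3 in model A (107 CPM) and Psme2 in model B (40.1 CPM) lay below every control.

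Psma8, Psmb11, Psmd9 and Psmg4, the 4 members with the widest spread, each had fractional counts in the table. Fractional values occurred in 10 of the 47 members, where 38.5% of all symbols had them, and no source used here says how such reads were shared out. Psma8, an alpha subunit known from the testis, measured 7.98, 20.2 and 25.2 CPM in electroacupuncture A to C, 123 and 33.8 CPM in model samples A and B, and 28.3, 52.0 and 10.4 CPM in the controls. Model A was far above the rest and the controls alone spanned 10.4 to 52.0 CPM (electroacupuncture over model -2.14, SE 0.78, edgeR adjusted p = 0.303). The estimate was -0.92 without model A and -2.78 without model B. In the GRCr8 annotation Psma8 overlaps Ss18, while Psmb11, Psmd9 and Psmg4 overlap no other gene. Overlaps occurred for 3 of the 10 members with fractional counts and for 11 of the 37 with whole counts.

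Psmb11, a beta subunit known from the cortex of the thymus, measured 4.34, 8.55 and 6.75 CPM in electroacupuncture A to C, 33 and 16.5 CPM in model samples A and B, and 10.1, 15.2 and 8.70 CPM in controls. The 3 groups did not overlap. The log2 fold change was -1.91 for electroacupuncture over model (SE 0.41, edgeR adjusted p = 0.142) and 1.13 for model over control (SE 0.40, adjusted p = 0.286), the second ranging from 0.54 without model A to 1.53 without model B. All 11 of its deposited values were fractional, and where its shared reads lie was not tested.

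The 7 assembly factors split in estimate, with 4 higher and 3 lower in the model (median log2 fold change 0.03) and 3 higher and 4 lower with electroacupuncture than in the model (median -0.07), and none passed. Psmd9, a chaperone of base assembly, measured 42.0, 66.6 and 64.1 CPM with electroacupuncture, 161 and 68.1 CPM in the model, with its peak in model A, and 62.4, 85.8 and 49.1 CPM in controls (electroacupuncture over model -0.99, SE 0.39, edgeR adjusted p = 0.334). The estimate was -0.24 without model A. Psmd10, the base chaperone gankyrin, had whole counts and measured 7.37, 6.04 and 8.86 CPM in electroacupuncture A to C, 7.02 and 6.62 CPM in model samples A and B, and 8.25, 7.39 and 9.25 CPM in controls (model over control -0.28, SE 0.25, adjusted p = 0.635).

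Psmg4, a core assembly chaperone named after its values were seen, was all but missing from model B. Its deposited counts were 0 and 2 in the 2 columns of model B and 300.09 and 315.41 in the 2 of model A. It measured 24.4, 27.7 and 25.2 CPM in electroacupuncture A to C, 33 and 0.11 CPM in model samples A and B, and 32.0, 27.4 and 32.0 CPM in controls. Without model A the single model sample left was called as lower than the controls (adjusted p = 0.000135, edgeR, the lone sample being taken to vary like the others), and without model B the estimate was near 0 (0.11). Psmg1, Psmg2 and Psmg3, its partners in core assembly, measured 43.1, 11.4 and 19.6 CPM in model B and lay within 36.9 to 47.7, 11.4 to 16.6 and 13.3 to 19.6 CPM over all samples. Psmd5, another base chaperone, had a log2 fold change of -0.09 for electroacupuncture over control.

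**Figure D5:**
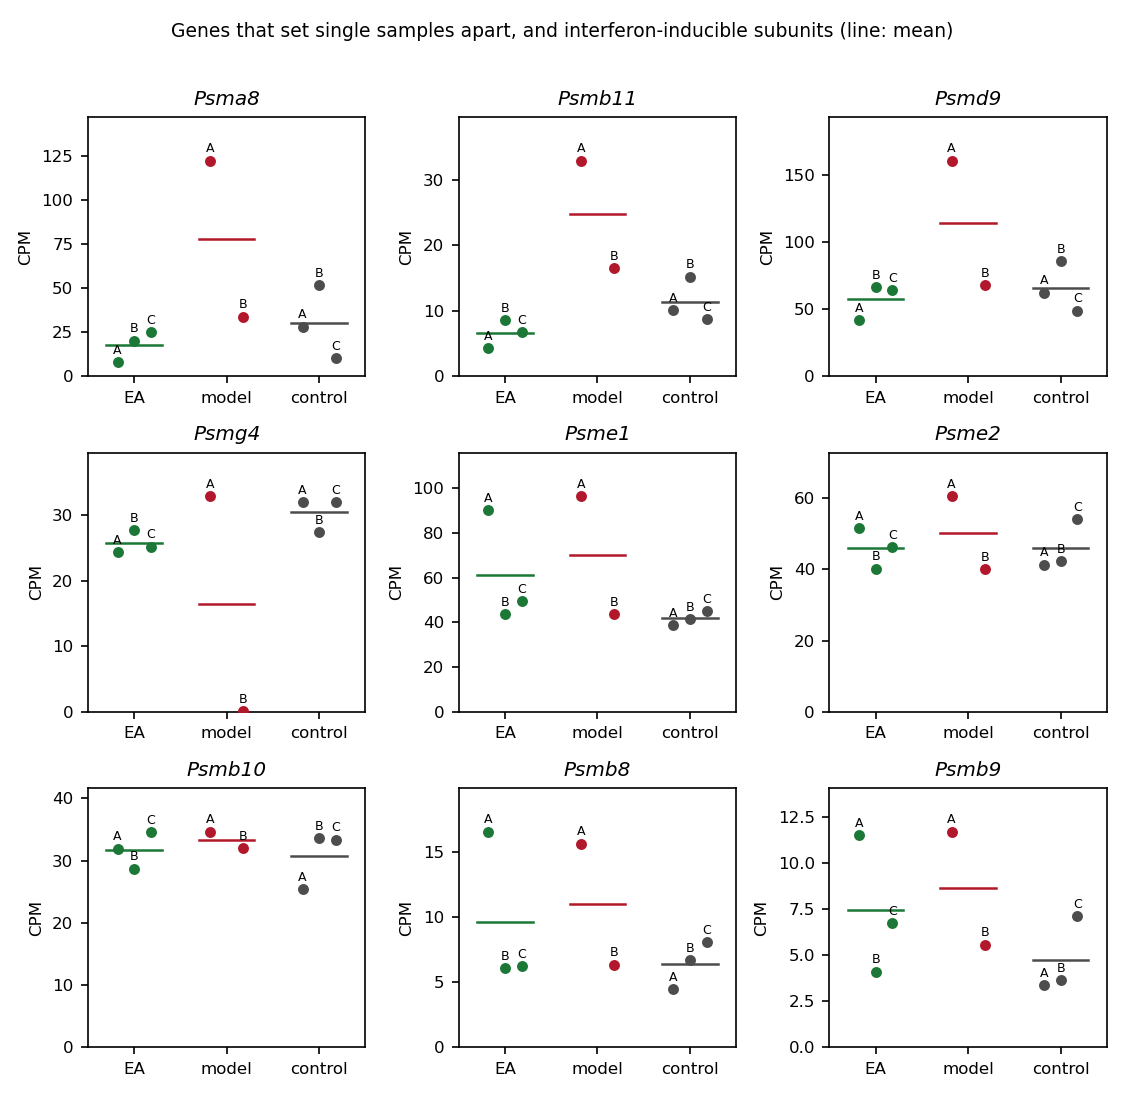
CPM (vertical axis, from 0) in each sample, lettered, of 7 proteasome genes and of Psmb8 and Psmb9, with electroacupuncture (EA), in the model and in controls; lines are group means. Model A is far above the rest for Psma8, Psmb11 and Psmd9, model B is near 0 for Psmg4, and electroacupuncture A and model A are together at the top for Psme1, Psmb8 and Psmb9.

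Psmc3ip, the member by name only, measured 10.9, 6.04 and 8.33 CPM in electroacupuncture A to C, 7.82 and 4.43 CPM in model samples A and B, and 6.05, 7.05 and 6.32 CPM in controls, with overlapping groups (electroacupuncture over model 0.46, SE 0.35, edgeR adjusted p = 0.649).

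Of 35 other genes of ubiquitin and proteasome function, 33 were in the table and tested. None passed in any of the 3 comparisons. In the model 20 were lower in estimate (60.6%, against 48.5% of all genes) and 13 higher (median log2 fold change -0.07). With electroacupuncture 20 were higher than in the model (60.6%, against 53.4% of all genes) and 13 lower (median 0.05). Against control, electroacupuncture had 15 higher (45.5%, against 50.8% of all genes) and 18 lower. These counts are by TMM. At an unadjusted p under 0.05, the list held 1 gene that was higher in the model, where 7.61% of all genes were, and 1 that was lower with electroacupuncture than in the model, where 7.18% were, Nfe2l1 in both. Ubqln1, a shuttle that carries ubiquitinated proteins to the proteasome, measured 148, 191 and 195 CPM in electroacupuncture A to C, 139 and 153 CPM in model samples A and B, and 188, 190 and 193 CPM in controls (model over control -0.38, SE 0.17, edgeR adjusted p = 0.367). Both model samples lay below the controls, and electroacupuncture A lay between them. Pomp, a chaperone of core assembly, measured 58.7, 67.3 and 67.4 CPM with electroacupuncture, 46.4 and 73.0 CPM in the model, and 75.2, 74.0 and 86.9 CPM in controls (model over control -0.40, SE 0.21, adjusted p = 0.428; -0.11 without model A).

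Ubb, a gene for ubiquitin, was lower in both model samples than in every electroacupuncture sample, without passing. It measured 1301, 1395 and 1166 CPM in electroacupuncture A to C, 768 and 1079 CPM in model samples A and B, and 1258, 1028 and 1323 CPM in controls (electroacupuncture over model 0.48, SE 0.23, edgeR adjusted p = 0.415; 0.26 without model A). Uba6, a ubiquitin-activating enzyme, measured 22.7, 23.8 and 22.5 CPM with electroacupuncture, 24.6 and 22.8 CPM in the model, and 20.3, 16.4 and 21.1 CPM in controls (model over control 0.30, SE 0.16, adjusted p = 0.438). Its controls lay below both other groups.

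Adrm1, the ubiquitin receptor of the base also called Rpn13 and named after its values were seen, jumped between samples of every group. It measured 134, 6.63 and 187 CPM in electroacupuncture A to C, 47.0 and 147 CPM in model samples A and B, and 147, 5.23 and 1.83 CPM in controls A to C. Several of its deposited values were fractional, and the near-identical columns of 1 sample were close (81.73 and 74.33 counts in the 2 columns of electroacupuncture B).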

How the data were processed

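Messenger RNA was profiled by RNA-seq in brain tissue of 12 labelled samples. The authors deposited 1 table of estimated counts per gene, not normalized, with 18804 rows and 11 columns. The submitters' processing notes name DESeq2 1.16.1, featureCounts 1.5.0-p3, StringTie 1.3.3b and HISAT2 2.0.5, with no roles. How reads of several genes and the adapters' molecular identifiers were handled was not stated, with the genome build likewise not given in the sources used here. Libraries were strand-marked and poly(A)-selected, per the labels' protocols.

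Column names gave the group but not the labelled sample; sham columns were taken as controls. Rows of 4 repeated symbols were summed and values rounded. Pairs of columns of a group whose median squared difference was under 2 times the sampling variance (genes with at least 20 counts in the pair) were summed. All 8 samples entered 1 fit in edgeR 4.0.16 (R 4.3.3; TMM, default expression filter, quasi-likelihood F test, robust, two-sided, 5 residual degrees of freedom, common biological coefficient of variation 36.8%), with Benjamini-Hochberg adjustment over 15487 genes. The SE was derived from F; log2 CPM used a prior count of 2. DESeq2 1.42.0 was an alternative. The fits were tested on data simulated with smaller biological coefficients of variation. That test does not show how they behave at the spread of these data. Named genes are the 2 members of each role with the smallest p, members under an unadjusted p of 0.05, Psmb5, Psmb7, Psmb10, Psme1 and Psme2, and likewise 6 pathway genes with Nfe2l1, Psmb8 and Psmb9, of which 1 is not reported here; the members and lists were chosen with earlier results of these data known. Samples held 9335913 to 23835724 counts; for members with few counts, such as Psmd10 and Psmc3ip, counting error is a larger part of the spread.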

Additional observations from a re-analysis of the deposited data

How the results depend on the processing

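With all columns as separate libraries, edgeR called 2 members for model over control and 4 for electroacupuncture over model, in place of 0, where 7.37% and 10.9% of all genes were called. For electroacupuncture over model it was 1 in DESeq2, and 2 with a replicate block on the numbers in the column names, a fit added after seeing the data; this block gave 0 in the other comparisons. The numbers are not tied to labelled samples, and the summed columns cross them, so the block could be fitted only on separate columns. Leaving out 1 sample gave 0 to 1 called for model over control and for electroacupuncture over model (Psmg4, without model A) and 0 for electroacupuncture over control.

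Psmg4 rested on model B, which held 2 of its counts. The members' median for model over control, -0.08, was 0.032 with total counts (median of all genes 0.13, against 0.017 by TMM), and ran from -0.12 to -0.031 over fits without 1 sample. For electroacupuncture over model it ran from -0.095 to 0.076 and for electroacupuncture over control from -0.17 to -0.0061. Of 512 values of named genes under alternatives, 497 kept direction and call, 12 became called and 3 turned: for model over control, Psmb10 without control A, and Psme2 and Psmb8 without model A. Over fits without 1 sample, Psmb10 ran from -0.0077 to 0.19, Psme2 from -0.20 to 0.39 and Psmb8 from -0.019 to 1.28. The cause was not tested. Motif shares in the 150 bases before the start lay within the binomial interval of the main shares. That window lies inside the first on the same promoters, so this check says little. For TGACNNNGC the shorter window held a match in 14.3% of members and 6.58% of all promoters, and for CCAAT in 40.5% and 23.5%. The model group holds 2 samples, which limits each comparison with it.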
